A study of Mus musculus with 12 samples.

Results

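Atm, Rev3l, Palb2, Wrn and Recql are 5 genes of DNA damage signalling, DNA repair and DNA unwinding whose transcripts carried N6-methyladenosine (m6A) peaks that differed between senescent and young mouse embryonic fibroblasts (MEFs). They were chosen by gene name among the 633 genes with a differing peak, with their direction, fold and p-value already known, so these values describe the genes and test nothing about them. The 5 genes held 9 of the 1043 listed peaks, in which each listed peak is the pair of a peak and 1 annotated transcript. All 9 were higher in P9, against a background of 80.5% of all listed peaks that were higher, and all 5 genes had higher peaks only, against 79.3% of all listed genes. With the choice made on this contrast, nothing is read from these shares.

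Methylated RNA immunoprecipitation sequencing (MeRIP-seq) pulls fragmented RNA down with an antibody against m6A and sequences it beside the same RNA before the pull-down, the input. The 12 libraries were 3 MeRIP and 3 input libraries of MEFs at passage 9 (P9) and as many at passage 3 (P3). The cells came from C57BL/6 embryos with no genetic change stated, and serial passaging was the only treatment, P9 being the senescent and P3 the young stage of replicative senescence. No source used here says whether replicates came from separate cultures or embryos, and P9 differs from P3 in time in culture as well as in senescence, which this design cannot tell apart.

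Each table entry holds a fold (the linear ratio of P9 to P3) and a p-value of the comparison, without a value for any library. The spread over replicates behind a fold therefore cannot be seen, and the depth is unknown. Every higher peak listed has a fold of at least 1.5 and no listed p-value is above 0.0490, and peaks that did not pass are not used here. In bulk RNA, a higher fold from more cells with a transcript, from more of that transcript per cell or from more m6A per transcript cannot be told apart, and no source used here states whether the input was divided out. None of 10 fibroblast markers and none of 14 markers of other cell types an embryo culture could hold had a listed peak. The tables hold no expression levels, so the identity of the cells could not be checked.

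m6A is written on mRNA mainly by a METTL3 and METTL14 complex, is removed by FTO and ALKBH5, and is read by YTH-domain proteins that act on splicing, stability and translation. Cells meet broken or blocked DNA with kinases that signal the damage, with recombination and end joining that rejoin the strands, with polymerases that copy across lesions, and with helicases that unwind the structures in between. A lasting DNA damage response is a known feature of senescent cells, and loss of WRN in humans causes Werner syndrome, a disease of premature ageing.

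The fold of the 5 genes covered a wide range in senescent MEFs compared to young MEFs. Recql stood highest at 7.62-fold, followed by Palb2 at 3.14-fold. Wrn, Rev3l and Atm lay between 1.52-fold and 1.92-fold, with Atm and the upstream of the Rev3l sites near the lower limit of 1.5 for listed peaks. The median over the 9 listed peaks was 1.81-fold, beside a median of 1.73-fold with an interquartile range of 1.58 to 2.04 over all 840 higher peaks. The 9 peaks lie at only 6 sites, so some are repeated readings of the same RNA. With 1 value per gene, the median was 1.92-fold over the 5 genes and 1.73-fold over the other 506 genes with a higher peak.

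**Figure D1:**
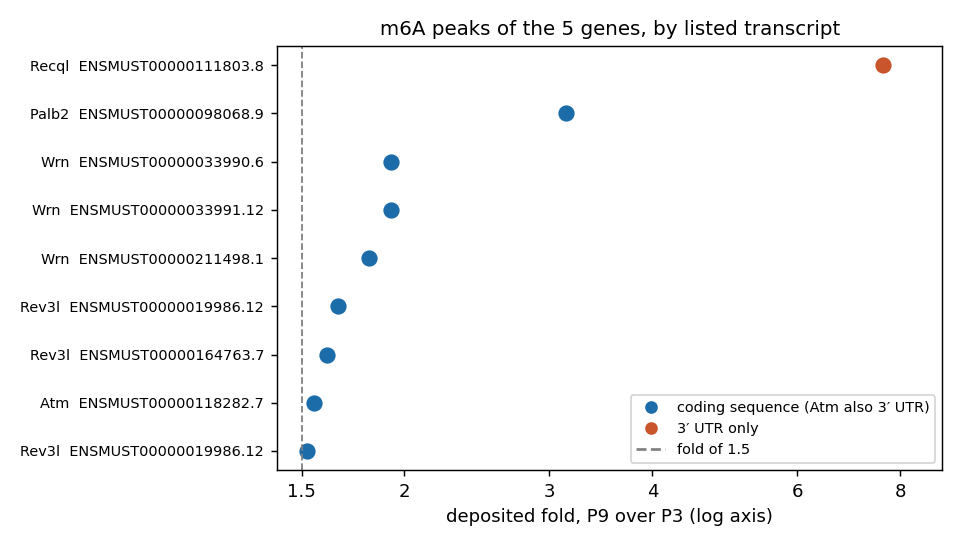
Deposited fold of P9 over P3 on a log axis for each of the 9 listed peaks, with the gene and transcript on the vertical axis and the place in the transcript by colour; no error bars are drawn because no values per library were at hand. Recql at 7.62 and Palb2 at 3.14 stand apart from the other 7 peaks, which lie between 1.52 and 1.92.

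Atm encodes the kinase that is activated by DNA double-strand breaks and phosphorylates p53, CHK2 and histone H2AX. Its single listed peak lay at chr9:53439209-53440119 on the minus strand of mm10, in transcript ENSMUST00000118282.7. The peak consisted of 2 exon blocks of 721 and 89 nucleotides (nt), from 53439209 to 53439929 and from 53440031 to 53440119. It was the only one of the 9 labelled with both the coding sequence and the 3' untranslated region (UTR). Its 810 nt made it the peak of rank 16 in length of the 511 genes that had a higher peak, and it took up 8.10% of a transcript of 10006 nt. The fold was 1.55 in P9 over P3 with a p-value of 0.00490, which placed Atm at rank 413 of 511 by fold.

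Rev3l encodes the catalytic subunit of DNA polymerase zeta, which extends DNA past lesions in translesion synthesis. It was the only one of the 5 genes with listed peaks at more than 1 site. Both sites lay in the coding sequence on the plus strand of chromosome 10, 1854 nt apart in the genome. The upstream site, chr10:39821875-39822892, was a single block of 1018 nt, rank 9 of 511 in length, with a fold of 1.52 and a p-value of 0.00490 in transcript ENSMUST00000019986.12. The downstream site was listed for 2 transcripts, as chr10:39824747-39825106 in ENSMUST00000019986.12 and as chr10:39824765-39825124 in ENSMUST00000164763.7. Each was 360 nt long, and the start differed by 18 nt between them. The fold at the downstream site was 1.66 (p-value 0.0257) in the first transcript and 1.61 (p-value 0.0347) in the second, a ratio of 1.03 between 2 readings of the same stretch of RNA. Higher peaks at several sites were uncommon in the table, occurring in 13 of 511 genes.

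The order of the Rev3l sites depended on the measure. The upstream site had the smaller p-value, and the downstream site had the larger fold. Taken by its smallest p-value Rev3l ranked 455 of 511 by fold, whereas taken by its largest fold it ranked 317. Listed peaks at one site share reads, so the 3 Rev3l entries are not 3 independent measurements.

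Palb2 encodes the partner that brings BRCA2 to broken DNA and links it with BRCA1 in homologous recombination. Its peak, chr7:122124304-122124604 on the minus strand, was a single block of 301 nt in the coding sequence of ENSMUST00000098068.9 and covered 8.03% of that transcript of 3750 nt. The fold was 3.14 with a p-value of 0.0347. By fold, Palb2 was the gene of rank 35 among 511. It was of rank 9 among the 227 genes whose peak with the smallest p-value touched coding sequence. By p-value it was the last of the 5 genes, at rank 392.

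Wrn encodes a RecQ helicase that also has an exonuclease activity. A single coding site on the minus strand of chromosome 8, from 33324168 to 33324422, was listed for 3 transcripts. The fold was 1.92 (p-value 0.0251) both in ENSMUST00000033990.6 and in ENSMUST00000033991.12, and 1.81 (p-value 0.0398) in ENSMUST00000211498.1. These peaks were 240 and 241 nt long and their starts lay within 14 nt of each other, so the 3 entries read nearly the same RNA. The ratio of 1.06 between the highest and the lowest Wrn fold was within what the choice of transcript gave elsewhere: of 236 sites listed for several transcripts, 64 (27.1%) had a ratio at least as large, the median ratio was 1.02, and 32 (13.6%) had the same fold throughout. Wrn ranked 168 of 511 by fold.

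Recql encodes RECQ1, another helicase of the RecQ family. Its peak at chr6:142361406-142361556 on the minus strand was the shortest of the 9, at 151 nt, and the only one that lay wholly in a 3' UTR, in transcript ENSMUST00000111803.8 of 3389 nt. The fold was 7.62 with a p-value of 0.00490, and a log2 fold of 2.93. Only 4 genes had a higher fold by the same measure, which placed Recql at rank 5 of 511. It was also at rank 5 of the 274 genes whose peak with the smallest p-value was labelled 3' UTR and not coding.

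The place of the Recql peak in the RefSeq gene span set it apart from most 3' UTR peaks. On the genome, introns included, 11064 nt separated it from the downstream limit of that span, which runs from 142350342 to 142387100. The median of this distance over 414 higher 3' UTR peaks was 405 nt. Only 10 of those peaks (2.42%) lay at least as far from the end of their gene. The distance was not measured along the listed transcript of 3389 nt or to the end of that transcript. It therefore does not give the place of the peak within the RNA. The part of introns and of other transcripts of the gene in this distance was not tested. The same stretch of chromosome 6 is also inside Pyroxd1, an oxidoreductase gene on the plus strand from 142345627 to 142362729, and the peak ended 1173 nt before the 3' end of Pyroxd1. Pyroxd1 itself had no listed peak. The libraries were made with a stranded kit, but no source used here states whether strand was used in counting, so reads of Recql and Pyroxd1 could not be told apart and the part of Pyroxd1 in the fold was not tested. Such overlaps were found for 97 listed peaks (9.30%) with another protein-coding gene on either strand and for 47 (4.51%) with one known to lie on the other strand, and none of the other 8 peaks of the 5 genes was among them.

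**Figure D2:**
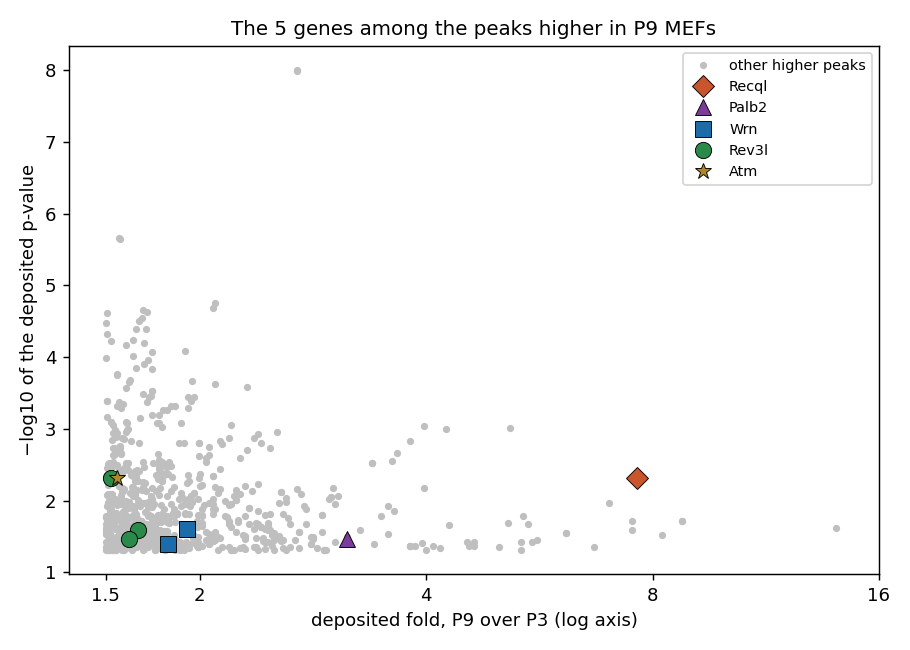
Deposited fold (P9 over P3, log axis) against −log10 of the deposited p-value, with the 9 listed peaks of the 5 genes as coloured symbols among 836 of the 840 higher peaks in grey; 4 higher peaks lie outside the axes. Recql combines a fold of 7.62 with a p-value of 0.00490, whereas Palb2, at 3.14-fold, has a p-value of 0.0347, near the limit of the table.

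Fold and p-value ordered the 5 genes differently. By fold the order was Recql, Palb2, Wrn, Rev3l and Atm, with the downstream Rev3l site just above Atm and the upstream one just below it. Recql exceeded Palb2 by a ratio of 2.43, and Palb2 exceeded Wrn by a ratio of 1.63. The ratio was 1.16 from Wrn to the downstream Rev3l site, 1.07 from that site to Atm, and 1.02 from Atm to the upstream Rev3l site. Without replicate values none of these steps could be given an error. The step from Atm to the upstream Rev3l site is smaller than the ratio of 1.06 that the choice of transcript alone made at Wrn.

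By p-value, Recql, Atm and the upstream Rev3l site shared the smallest value, 0.00490, and ranked 113 of 511, followed by Wrn at rank 325 and Palb2 at rank 392. The shared value does not tie the 3 genes together, because all 1043 p-values lie on steps of 0.01 in −log10 and take only 242 distinct values. In all, 6 listed peaks of 6 genes had a p-value of 0.00490, including these 3. The log2 folds were likewise rounded to 3 significant digits, which for Recql leaves a range of 7.59 to 7.65 and for Palb2 one of 3.13 to 3.15. Of the 9 peaks, which lie at 6 sites, 3 (33.3%) had a p-value of at most 0.01, beside 276 of the 840 higher peaks (32.9%).

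The peaks of the 5 genes lay mostly in coding sequence. Coding sequence was part of the peak in 4 of the 5 genes and the whole of it in 3, Rev3l, Palb2 and Wrn. The other 506 genes with a higher peak were each taken at the entry with the smallest p-value. At that entry, 223 (44.1%) had a peak that touched coding sequence and 116 (22.9%) one wholly within it. A further 273 (54.0%) had a peak there labelled 3' UTR and not coding. Some of these, such as Arhgap12, also had another entry that touched coding sequence. Counted by listed peaks, 8 of 9 touched coding sequence, against 387 of 840 higher peaks (46.1%). Among the 10 other repair genes described below, 6 (60%) had a peak that touched coding sequence and 3 (30%) one wholly within it. In 4 (40%) the peak was labelled 3' UTR and not coding. The counts for the 5 genes rest on 6 sites, and none of these shares was tested.

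Along the gene, the sites ranged from the first part of Palb2 to the far end of Atm. On the RefSeq spans, introns included, the middle of the peak lay at 33.2% of the way from the 5' end in Palb2, at 40.5% in Wrn, at 63.2% and 65.0% in Rev3l, at 69.7% in Recql, and at 97.5% in Atm. Of the 5 genes, Atm had its peak nearest to the 3' end, 2087 nt away. The distance was 17042 nt in Palb2, 52319 nt from the upstream Rev3l site and 89796 nt in Wrn, whose gene spans 151172 nt. The median over the 5 genes was 17042 nt, compared with 1707 nt over the other genes with a higher peak. Over the 10 other repair genes described below it was 1076.5 nt. These distances are counted on the genome and include introns, so long genes give long distances.

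**Figure D3:**
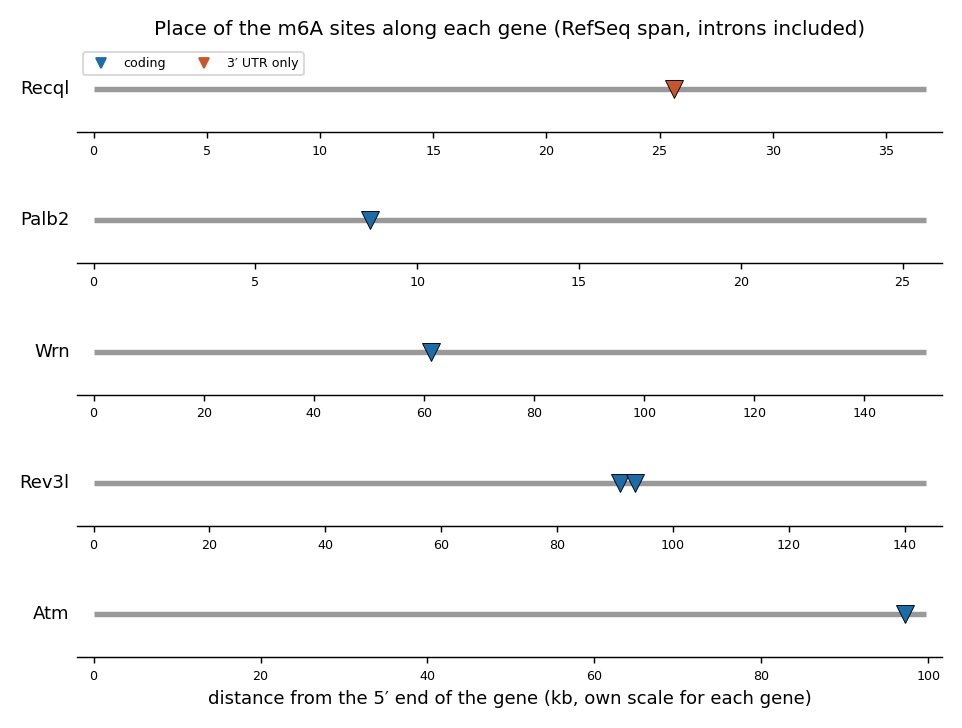
Place of each m6A site (triangle) along its gene, as the distance in kb from the 5' end of the RefSeq span, introns included, with a separate scale for each gene. The Atm site sits 2087 nt from the 3' end of its gene, whereas the Wrn site sits 89796 nt and the Palb2 site 17042 nt from theirs, and the Rev3l gene holds 2 sites.

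Some of the 5 transcripts were long. The Rev3l transcript of 10713 nt and the Atm transcript of 10006 nt ranked 25 and 33 in length among the 511 genes. Thus 2 of the 5 genes (40.0%) had a transcript of over 10000 nt, against 31 of the other 506 genes (6.13%). The median transcript was 5019 nt in the 5 genes and 3557 nt in the others. The 5019 nt is a Wrn transcript, tied in fold and p-value with another of 6262 nt, which would make the median 6262 nt. The 2 longest transcripts also carried the 2 longest peaks of the 5 genes, at 1018 nt in Rev3l and 810 nt in Atm, and the 2 smallest folds. Peak length over the 9 listed peaks had a median of 301 nt, against 269 nt with an interquartile range of 180 to 390 over all higher peaks. The part of transcript length in these values was not tested.

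Other genes of the same pathways were read from 10 lists that hold 228 genes of DNA damage signalling and repair, the 5 genes included. Of these, 15 had a listed peak, and all 15 were higher in P9 only. The lists are not complete, and genes of the DNA damage response outside them were not counted. The share of all mouse genes with a listed peak was not computed. This count and those of each list below therefore do not show whether repair genes were listed more often than other genes. Without the 5 genes, 10 of 223 were listed, 10 higher and 0 lower, against the background of 79.3% of listed genes with higher peaks only. Their folds ran from 1.51 to 4.56 with a median of 1.72, close to the median of 1.73 over all 511 genes. Repair genes without a listed peak were not necessarily free of m6A, since a peak that did not differ, or a transcript too scarce to call one, is not in the tables.

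In damage signalling, 2 of 33 genes were listed, Atm and Rad9b. Rad9b, a paralog of the RAD9 subunit of the checkpoint clamp, had a 3' UTR peak at 1.73-fold (p-value 0.0166) inside the span of Pptc7 on the plus strand. Pptc7 had a listed higher peak of its own at 1.74-fold (p-value 0.0214), and its 151 nt lay wholly within the Rad9b peak, so reads of these genes could not be told apart. Palb2 was the only one of 44 genes of homologous recombination with a listed peak. Among 28 genes of translesion synthesis and DNA polymerases, Rev3l was joined by Polq. Polq, the polymerase theta of microhomology-mediated end joining, had a coding peak at 4.56-fold (p-value 0.0427), rank 20 of 511. Within the lists, it was the only gene besides Recql with a fold above that of Palb2.

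Of 35 RecQ and other DNA helicase genes, Wrn, Recql and Ddx11 were listed, and the RecQ helicase genes Blm, Recql4 and Recql5 were not. Ddx11, an iron-sulfur helicase with a role in sister chromatid cohesion, had a 3' UTR peak at 1.87-fold (p-value 0.0148) and, in another transcript, at 1.94-fold (p-value 0.0151). Each gene was counted in 1 list only, so Palb2, also a Fanconi anaemia gene, is not in the next list. Of 18 genes in the list of the Fanconi anaemia pathway, which repairs crosslinks between DNA strands, 1 had a listed peak. This was Fanca of the core complex, at 1.57-fold (p-value 0.0427) in coding sequence, inside the span of Zfp276. Zfp276, on the opposite strand, had a listed higher peak of its own at 1.77-fold (p-value 0.00380) that shared 102 nt with the Fanca peak, and here too the reads could not be told apart.

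Of 13 genes in the list of non-homologous end joining, 3 had a listed peak. Aplf, a scaffold for end-joining factors, stood at 1.72-fold (p-value 0.0331) and, in another transcript, at 1.51-fold (p-value 0.0447). Lig4, the ligase of non-homologous end joining, stood at 1.63-fold (p-value 0.0490) in the 3' UTR, at the limit of the table. Dclre1a, counted in this list but known as a nuclease of crosslink repair, stood at 1.53-fold (p-value 0.0151) with a peak across the 5' UTR and the coding sequence.

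Of 23 genes of base excision and single-strand break repair, the ligase gene Lig1 and the flap nuclease gene Fen1 were listed. Both enzymes also finish Okazaki fragments in replication. Lig1 stood at 1.99-fold (p-value 0.0437) in all 3 of its listed transcripts, and Fen1 at 1.51-fold (p-value 0.0120) across the coding sequence and the 3' UTR. The mismatch repair gene Pms2 was listed at 1.76-fold (p-value 0.0347) in coding sequence, 1 of 7 genes in its list. None of 24 nucleotide excision repair genes and none of 3 direct reversal genes had a listed peak.

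**Figure D4:**
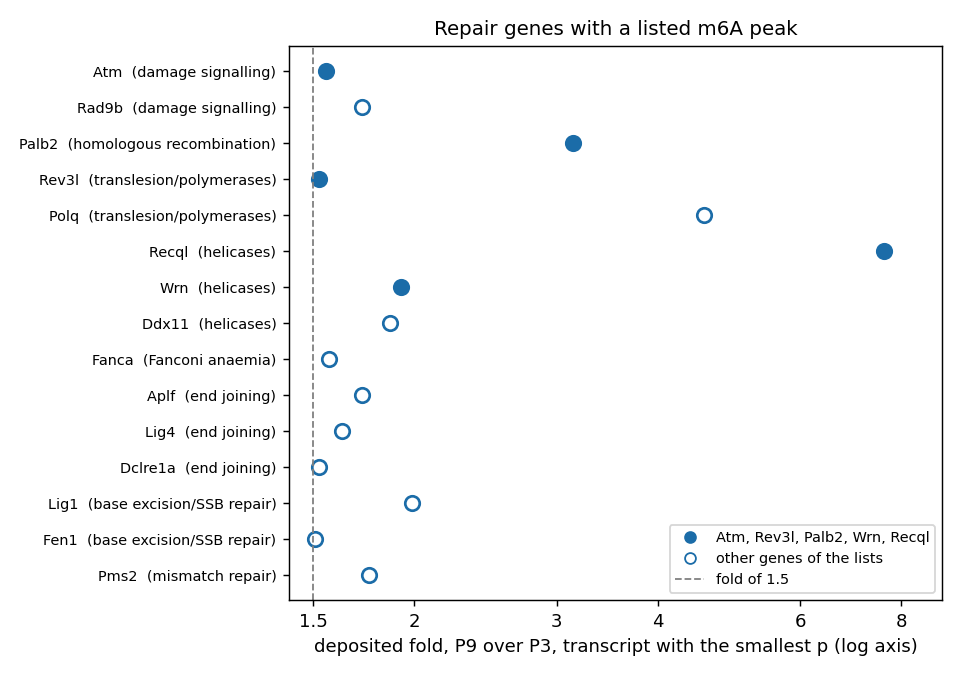
Deposited fold of P9 over P3 (log axis) for the 15 genes of the repair lists with a listed peak, grouped by list. Each gene is shown at the transcript with the smallest p-value. Filled points are Atm, Rev3l, Palb2, Wrn and Recql, and open points are the other 10 genes. All 15 lie above 1.5, and only Recql, Polq and Palb2 lie above 2.

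The genes outside these lists with the closest fold, in the same direction and place, were looked up over this 1 comparison. Polr2i, an RNA polymerase II subunit gene, and Slc29a3, a nucleoside transporter gene, had the 1.55-fold of Atm. Akap11, Larp7 and Shroom4 had the 1.52-fold of the upstream Rev3l site, and the transcription factor gene Pou2f1 had the 3.14-fold of Palb2. Ccdc18 and Plcb1 came closest to Wrn at 1.93-fold, and Adat3 and Bmp2 came closest to Recql at 7.52-fold. Equal folds arise readily where log2 folds are rounded to 3 significant digits, and a like fold in 1 comparison says no more than that.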

How the data were processed

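MeRIP and input libraries of P9 and P3 MEFs were grouped by their labels. The fold (ratio) values are the authors' deposited linear ratios per peak and transcript, and the p-values are the authors' deposited values for the same comparison. Aligner, peak caller, test and any adjustment were not given in the sources used here. Per the labels, coordinates are on mm10, and they are given here 1-based. The tables name the groups Treatment and Control. These were taken as P9 and P3, since the entries above and below 1 are as many as the paper counts for senescent over young cells. The tables hold no value per library, so depth and precision are unknown and nothing was refitted or tested.

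Entries of a gene in the same direction whose exon blocks overlapped on the same strand were merged into 1 site. This step was checked on a few made-up blocks with a known answer. A gene is represented by the transcript with the smallest p-value, ties going to the larger change and then by order of transcript name. A peak with several labels counts as coding before 3' UTR before 5' UTR. Gene spans came from RefSeq on the mouse assembly GRCm38.p6 and were found for 998 of 1043 entries. Genes named are the 5 genes, all other listed genes of the repair lists (values for up to 12), and for each of the 5 the closest fold outside the lists, ties included. The genes and lists were chosen with earlier results of these data known. Figures were drawn with matplotlib 3.10.9, and values were computed in Python 3.11.15 with pandas 2.3.3 and numpy 2.4.6. Sequences under the peaks are not shown, since no genome was used here.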

Additional observations from a re-analysis of the deposited data

How the results depend on the processing

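The 9 listed peaks of Atm, Rev3l, Palb2, Wrn and Recql became 3 at a p-value of at most 0.01 (Atm, Recql and the upstream Rev3l site), 0 at a p-value of at most 0.001, and 2 (Palb2 and Recql) at a change of at least 2-fold. The 15 genes of the repair lists with a listed peak became 3 at a p-value of at most 0.01 (the same 3 genes) and 0 at at most 0.001. At a change of at least 2-fold, 3 of them (Palb2, Polq and Recql) were left. Without peaks in the span of another protein-coding gene, an alternative chosen after seeing the data, 8 peaks and 12 genes were left, with Recql, Rad9b and Fanca removed. The 6 sites stayed 6 with an overlap of at least 50% of the shorter peak and with peak spans in place of exon blocks. The coding share of the 9 peaks was 88.9%, 77.8% with the 3' UTR placed first and 83.3% over merged sites. Atm, Palb2 and Recql were listed for 1 transcript each, so the choice of transcript could not change their folds. Another choice gave 1.81-fold for Wrn, and 1.61-fold or 1.66-fold, both at the downstream site, for Rev3l. No paired analysis was possible because the tables hold no value per library. For the same reason no library could be left out, depth could not be weighed, and peaks below the authors' threshold could not be seen.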
